A study of Mus musculus with 3 samples.

Results

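Coinhibitory receptors are surface proteins that restrain an activated T cell. The 10 genes described here encode 7 such receptors (Btla, Tigit, Pdcd1, Lag3, Havcr2, Cd160 and Cd101) and a ligand of one, Cd274, together with Pdpn and Procr. They were chosen by name, with earlier results of these data known, as were the gene lists below. Their counts beside the shares of all genes are therefore description and not a test. Each of the 10 genes was read as the mean of the probes that carry its symbol alone. All 10 were measured, each by 1 probe, among 19938 genes. The RNA came from CD4+ T cells of mice of the strain B6.Cg-Tg(TcraTcrb)425Cbn/J, called OT-II, which carry a transgenic T cell receptor for an ovalbumin peptide. Cells sorted as naive (CD4+CD25-CD62LhighCD44low) were activated by the Ova peptide on splenic antigen-presenting cells that had been depleted of T cells and came from Il23a-/- mice. Those presenting cells, the peptide and the 60 hours of culture were common to all groups. Th0 cells had no cytokine added, Th22 cells had IL-6, and Th17 cells had IL-6 with TGFβ. Each group was represented by 1 array, and its cells were purified with magnetic beads before RNA isolation. The labels used here give neither the number nor the age of the animals, nor whether they were pooled.

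PD-1 (Pdcd1) and its ligand PD-L1 (Cd274), TIGIT, BTLA, LAG-3 and TIM-3 (Havcr2) pass inhibitory signals to T cells after they meet antigen, and they balance costimulatory receptors such as CD28 and CD226. In mouse CD4+ T cells given IL-27, several of these receptors are expressed together with podoplanin (Pdpn) and the protein C receptor (Procr), and the transcription factors c-Maf and Blimp-1 (Prdm1) are known to take part in that program. Podoplanin is also known on mouse Th17 cells, as well as on lymphatic endothelium and lymph node stroma. Setting Th17 against Th22 addresses what goes with TGFβ added to IL-6, that of Th22 with Th0 what goes with IL-6 alone, and that of Th17 with Th0 what goes with both.

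With 3 arrays and none repeated, no difference below has a replicate check and no test was run. The deposited values are centred: each probe is given relative to its own median over the 3 arrays, so 0 means the middle array and not absence, and no expression level or signal over background is known. Values are taken as log2, an assumption, and a higher value as higher expression. A gene was counted as different at 2-fold, which is 1 on the log2 scale. As a yardstick of probe error, among 999 genes with several probes the distance between probes stayed, in 95% of genes, within 0.41 log2 when Th17 was set against Th22, 0.34 when Th22 was set against Th0 and 0.43 when Th17 was set against Th0. That yardstick leaves out the spread between cultures. Genes whose probes were equal on all arrays were kept in it, which can make it too narrow for genes that vary. The 7 measured CD4 T cell markers lay within 2-fold in every comparison, but their presence cannot be checked on centred values. All 7 were lower in Th17 than in Th22 (-0.59 to -0.06 log2) and higher in Th22 than in Th0 (0.06 to 0.42). In Th17 against Th0 they ran from -0.38 to 0.10. In such bulk samples, fewer cells of a type and less RNA per cell cannot be told apart.

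In Th17 against Th22, 3 of the 10 genes were at least 2-fold higher (Pdpn, Cd101 and Procr) while Btla, Tigit and Cd274, another 3, were lower by as much, and 4 were within 2-fold. Over all genes 2.61% differed by 2-fold in that comparison, 1.1% being higher and 1.5% lower. In Th17 against Th0 the same 6 genes passed 2-fold in the same directions, where 3.03% of all genes did, 1.47% higher and 1.56% lower. These comparisons share the Th17 array, so they are not independent. In Th22 against Th0 none of the 10 passed 2-fold, where 0.808% of all genes did, 0.547% higher and 0.261% lower. The median of the 10 was -0.13 log2 in Th17 against Th22, -0.09 in Th22 against Th0, and -0.58 in Th17 against Th0, beside a median of 0 over all genes in each.

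**Figure D1:**
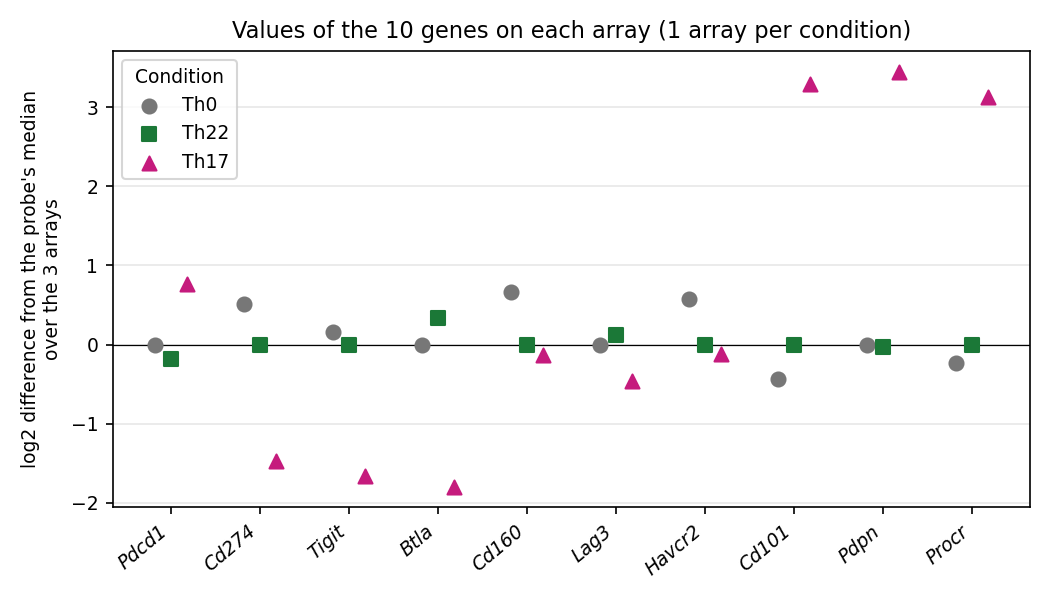
Value of each of the 10 genes on the Th0, Th22 and Th17 arrays, as the log2 difference from the probe's median over the 3 arrays (1 point per array, no error bars because no array was repeated). The Th17 points of Cd101, Pdpn and Procr lie between 3.14 and 3.45, those of Cd274, Tigit and Btla between -1.80 and -1.48, and the Th0 and Th22 points lie within 0.66 of 0.

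Pdpn encodes podoplanin, a mucin-type glycoprotein that binds the platelet and dendritic cell receptor CLEC-2. Its centred value was 0 on the Th0 array, -0.03 on the Th22 array and 3.45 on the Th17 array. Th0 and Th22 were nearly equal, at a distance of 0.03 log2, which is inside the probe yardstick, and the Th17 array alone was high. Pdpn was thus 11.2-fold higher in Th17 than in Th22 and 11.0-fold higher than in Th0. It ranked 11th of 19938 genes from the top in Th17 against Th22 and 23rd in Th17 against Th0.

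Procr encodes the endothelial protein C receptor, a protein with a fold like that of CD1 and MHC class I that presents protein C for activation on vessel walls. It read -0.23 in Th0, 0 in Th22 and 3.14 in Th17. The Th17 array was again far above both others, whose distance of 0.23 log2 lay inside the yardstick. The fold was 8.79 against Th22 and 10.3 against Th0. Procr ranked 15th from the top in Th17 against Th22 and 24th in Th17 against Th0.

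Cd101 encodes a glycoprotein of the immunoglobulin superfamily that inhibits T cell activation. Its values were -0.44 in Th0, 0 in Th22 and 3.29 in Th17, an ordered series in which Th22 exceeded Th0 by 0.44 log2 (1.36-fold), past the probe yardstick but short of 2-fold. Th17 was 9.79-fold above Th22 and 13.3-fold above Th0. Cd101 ranked 12th and 14th from the top of all genes in these comparisons.

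Promoter sequences of the members that stood high in Th17 and of those that stood low are shown because each set was displaced together. The windows run from 250 bases before to 50 bases after a RefSeq gene start, 300 bases in build GRCm38.p6, and were found for 9 of the 10 genes. They lie at chr4:143299515-143299814 on the minus strand for Pdpn, chr2:155750967-155751266 on the plus strand for Procr and chr3:101029504-101029803 on the minus strand for Cd101. The low set lies at chr16:45224087-45224386 on the plus strand for Btla, chr16:43664135-43664434 on the minus strand for Tigit and chr19:29367188-29367487 on the plus strand for Cd274. Capitals mark matches, on either strand, to the motifs searched: the Maf half-site TGCTGA, the Smad element GTCTAGAC, the AP-1 site TGANTCA and the STAT site TTCNNNGAA. The first and the third of these can overlap.
Pdpn: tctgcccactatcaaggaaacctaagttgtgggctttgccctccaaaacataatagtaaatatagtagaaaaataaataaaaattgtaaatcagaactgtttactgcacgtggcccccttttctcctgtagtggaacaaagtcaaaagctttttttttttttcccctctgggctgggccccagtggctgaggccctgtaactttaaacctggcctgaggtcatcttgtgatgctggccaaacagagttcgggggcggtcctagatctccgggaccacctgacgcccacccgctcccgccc
Procr: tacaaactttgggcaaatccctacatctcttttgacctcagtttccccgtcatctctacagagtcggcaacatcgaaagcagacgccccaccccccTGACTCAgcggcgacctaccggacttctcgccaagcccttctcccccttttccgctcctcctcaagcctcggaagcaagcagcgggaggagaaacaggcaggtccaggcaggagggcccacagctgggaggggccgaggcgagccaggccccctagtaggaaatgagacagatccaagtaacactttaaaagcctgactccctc
Cd101: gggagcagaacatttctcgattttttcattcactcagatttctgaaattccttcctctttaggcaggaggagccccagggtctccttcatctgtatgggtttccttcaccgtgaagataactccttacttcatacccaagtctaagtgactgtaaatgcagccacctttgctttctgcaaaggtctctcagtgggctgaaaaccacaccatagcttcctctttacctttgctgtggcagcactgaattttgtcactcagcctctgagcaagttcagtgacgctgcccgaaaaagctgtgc
Btla: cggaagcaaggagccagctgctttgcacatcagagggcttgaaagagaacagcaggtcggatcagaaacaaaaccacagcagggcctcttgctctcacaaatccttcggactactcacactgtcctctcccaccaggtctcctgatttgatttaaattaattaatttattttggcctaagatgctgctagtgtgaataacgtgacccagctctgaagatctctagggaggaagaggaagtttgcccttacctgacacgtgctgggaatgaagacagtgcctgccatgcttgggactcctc
Tigit: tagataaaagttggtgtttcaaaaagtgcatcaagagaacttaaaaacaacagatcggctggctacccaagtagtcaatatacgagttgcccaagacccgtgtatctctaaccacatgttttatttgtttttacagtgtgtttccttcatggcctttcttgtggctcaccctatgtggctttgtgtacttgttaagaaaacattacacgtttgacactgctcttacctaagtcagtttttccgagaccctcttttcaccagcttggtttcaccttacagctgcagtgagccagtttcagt
Cd274: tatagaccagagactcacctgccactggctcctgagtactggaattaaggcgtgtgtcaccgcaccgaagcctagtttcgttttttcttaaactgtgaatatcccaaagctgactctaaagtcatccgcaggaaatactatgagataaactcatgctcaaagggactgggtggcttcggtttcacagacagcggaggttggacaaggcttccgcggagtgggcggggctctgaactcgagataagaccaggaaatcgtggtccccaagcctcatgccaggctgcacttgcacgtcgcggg
Of these 6 windows only that of Procr held a match, an AP-1 site TGACTCA that begins at position -154 from the gene start. Over all 9 genes the AP-1 motif was in 2 (Procr and Havcr2, the latter TGATTCA at position -200), the Maf half-site in 1 (Cd160), the STAT site in 1 (Cd160, in another of its windows) and the Smad element in 0. Among 32851 promoter windows of all genes the AP-1 motif was present in 7.81%, the Maf half-site in 19.5%, the STAT site in 8.30% and the Smad element in 0.213%. These shares count windows, whereas the members were counted by gene with a match in any of its windows. A match describes letters and not binding, and a window without one says nothing about a factor acting elsewhere.

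Btla encodes an inhibitory receptor that binds HVEM (Tnfrsf14). It read 0 in Th0, 0.33 in Th22 and -1.80 in Th17. The Th17 array was low, and Th22 and Th0 were separated by 0.33 log2, just inside the yardstick. Btla was 4.37-fold lower in Th17 than in Th22 and 3.47-fold lower than in Th0. It was the lowest of the 10 against Th22, 64th of all genes from the bottom.

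Tigit encodes a receptor that binds the poliovirus receptor CD155 (Pvr) and competes for it with the activating receptor CD226. Its values of 0.16 in Th0, 0 in Th22 and -1.66 in Th17 put Th17 alone apart. The difference was 3.16-fold against Th22 and 3.52-fold against Th0. Tigit was 127th from the bottom of all genes in Th17 against Th22 and 117th in Th17 against Th0.

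Cd274 encodes PD-L1, the ligand of PD-1, which activated T cells carry as well as presenting cells. It took 3 steps: 0.52 in Th0, 0 in Th22 and -1.48 in Th17. The distance of 0.52 log2 between Th0 and Th22 (1.43-fold) was past the yardstick and under 2-fold. Th17 was 2.78-fold below Th22 and 3.99-fold below Th0. Against Th0, Cd274 was the lowest of the 10.

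The remaining coinhibitory genes were less displaced. Pdcd1, which encodes PD-1, read 0 in Th0, -0.18 in Th22 and 0.76 in Th17. It was 1.92-fold higher in Th17 than in Th22, just under the threshold, and 1.69-fold higher than in Th0. In Th17 against Th22, PD-1 and its ligand PD-L1 thus lay on opposite sides of 0.

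Lag3, whose product binds MHC class II and is related to CD4, had values of 0 in Th0, 0.12 in Th22 and -0.46 in Th17. It was 1.49-fold lower in Th17 than in Th22 and 1.37-fold lower than in Th0. Havcr2, which encodes TIM-3, was 0.57 in Th0, 0 in Th22 and -0.12 in Th17. Here the Th0 array was the high one, 1.48-fold above Th22 and 1.62-fold above Th17, while Th17 and Th22 differed by 1.09-fold, inside the yardstick. Cd160 encodes a glycolipid-anchored receptor that, like BTLA, binds HVEM. It followed the same order, with 0.66 in Th0, 0 in Th22 and -0.13 in Th17. Th0 exceeded Th22 by 1.58-fold and Th17 by 1.73-fold, and Th17 and Th22 differed by 1.10-fold. Of 8 CD8 and NK cell markers, 5 also lay below 0 in Th22 against Th0, all within 2-fold, and 3 were equal on all arrays. The list median was -0.22 log2, with a range from -0.79 to 0, beside a median of 0 over all genes. Of the 5, Cd8a (-0.20) and Cd8b1 (-0.25) stayed inside the probe yardstick of 0.34, and Xcl1 (-0.35) was just past it. Eomes lay 1.73-fold below Th0 on both the Th22 and Th17 arrays. The NKG2D gene Klrk1 lay 1.48-fold below Th0 on the Th22 array and 1.74-fold below on the Th17 array. Eomes encodes a factor of CD8 and NK cells and is also among the transcription factors listed below. In Th17 against Th0 the list median was -0.03 log2, with a range from -1.38 to 0.03. Cd8a was at -0.05 and Xcl1 at 0.03. Cd160 and Havcr2 are also expressed by CD8 and NK cells, whose part in these differences was not tested.

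**Figure D2:**
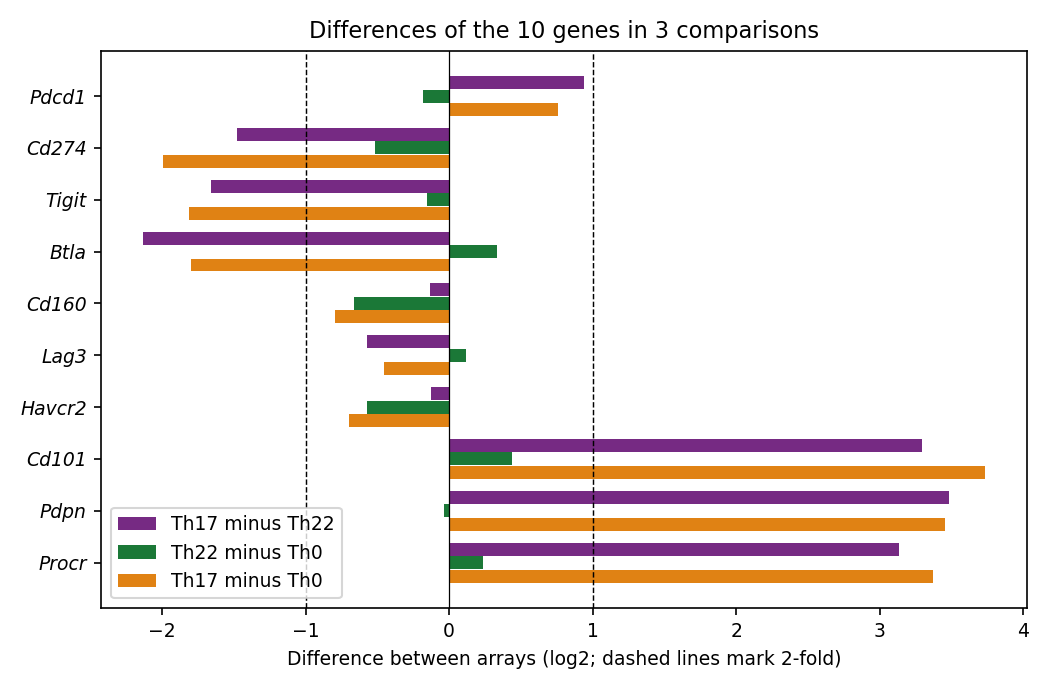
Differences between arrays for each of the 10 genes on the log2 scale (bars; dashed lines mark 2-fold; 1 array per condition, so no error bars). The bars of Th22 minus Th0 run from -0.66 to 0.44 and stay inside the dashed lines, whereas 6 genes pass them in both comparisons of Th17.

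By the probe yardstick, 8 of the 10 genes differed in Th17 against Th22 (all but Havcr2 and Cd160), where 8.85% of all genes did. In Th22 against Th0 it was 4 of 10, with Cd274, Havcr2 and Cd160 lower and Cd101 higher in Th22, beside 6.28% of all genes. In Th17 against Th0 all 10 passed it, beside 8.96%. An order of all 3 arrays was resolved by the yardstick for 2 genes, Cd274 (Th0, Th22, Th17 from high to low) and Cd101 (Th17, Th22, Th0). In the other 8 at least 1 pair of arrays next to each other in the order lay inside it: Th22 and Th0 for Pdpn, Procr, Pdcd1, Btla, Tigit and Lag3, and Th17 and Th22 for Havcr2 and Cd160.

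**Figure D3:**
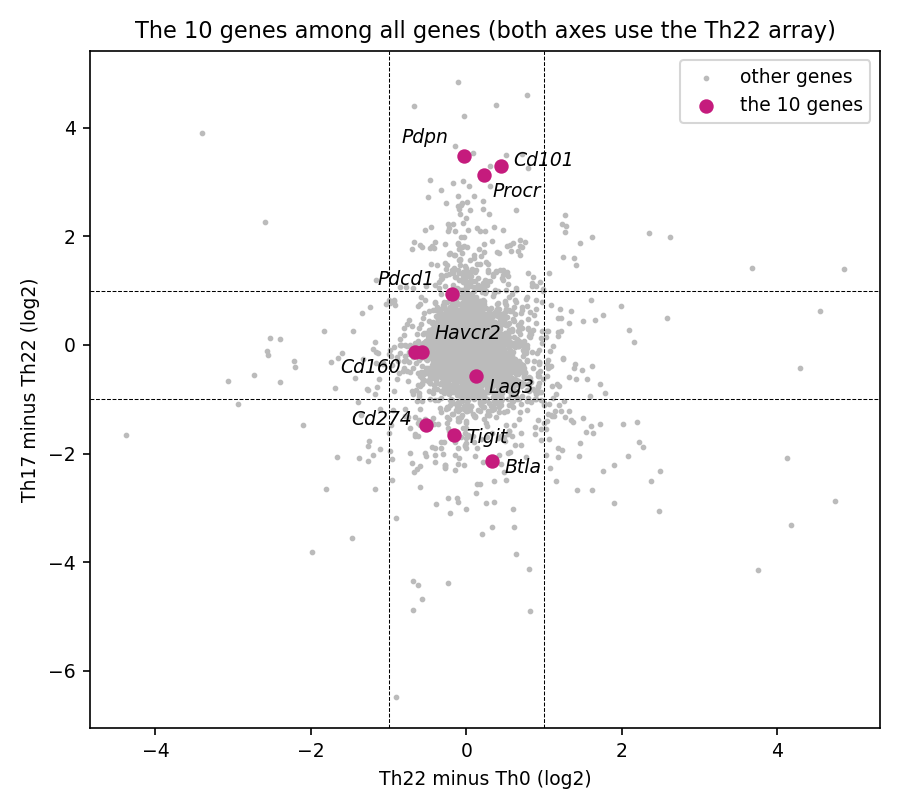
All 19938 genes by the difference Th22 minus Th0 (horizontal) and Th17 minus Th22 (vertical), both log2, with the 10 genes in colour and 2-fold marked by dashed lines. Both axes use the Th22 array. The 10 genes spread from -2.13 to 3.49 on the vertical axis and from -0.66 to 0.44 on the horizontal axis.

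The 6 genes past 2-fold depend in size on how the arrays are scaled. Quantile normalization, which forces equal spread on the arrays, was run on the centred values and not on signals. Their SD over probes was 0.17 for Th0, 0.12 for Th22 and 0.28 for Th17. The step therefore narrows the Th17 values and widens the Th22 values by construction. In Th17 against Th22 it gave 6.83-fold for Pdpn, 5.88-fold for Cd101, 5.21-fold for Procr, 2.72-fold for Btla and 2.00-fold for Tigit. All kept their directions, and quantile normalization left Cd274 at 1.89-fold, under the threshold. Against Th0 it gave 8.18-fold for Cd101, 6.61-fold for Pdpn, 6.25-fold for Procr, 3.12-fold for Cd274, 2.24-fold for Tigit and 2.08-fold for Btla.

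The genes whose pattern over the arrays was nearest to each of these 6 were found by the distance between their pairs of differences from Th0, which rests on 3 arrays. For Pdpn they were Foxp3, the regulatory T cell factor gene, at a distance of 0.13 log2, the kinase gene Sgk1 at 0.20 and Procr itself at 0.28. For Procr they were Klrd1 (0.16), Ldlrad4 (0.23) and Pdpn (0.28), and for Cd101 Ldlrad4 (0.20), Nipal1 (0.28) and Sgk1 (0.37). Within 0.5 log2 lay 7 genes of Pdpn, 9 of Procr and 5 of Cd101. The genes nearest to Btla were Tespa1 (0.05), Samd9l (0.12) and Cysltr2 (0.16), those nearest to Tigit were Dock10 (0.02), Farp1 (0.07) and Snx9 (0.09), and those nearest to Cd274 were Plk2 (0.09), Il15ra (0.10) and Gbp9 (0.10). Within the same distance lay 31 genes of Btla, 63 of Tigit and 43 of Cd274. These counts do not show which pattern is more common. Fewer genes lie far from 0, and the low members lay nearer to 0 than the high ones.

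Protein-coding genes that lie next to the members on the chromosome were looked up after the members' values were seen. Of 20 such neighbours 19 were measured, and 17 of these were within 2-fold in Th17 against Th22, 4 of them equal on both arrays. Over all genes 2.61% passed 2-fold in that comparison. Beside Btla lies Cd200, which encodes a ligand with inhibitory function, and it was 3.22-fold lower in Th17 than in Th22. Cd101 is next to Ptgfrn, which encodes a related immunoglobulin superfamily protein, and Ptgfrn was 2.01-fold higher in Th17 than in Th22 and 2.59-fold higher than in Th0, though 1.59-fold higher than in Th22 after quantile normalization. Cd274 is next to Pdcd1lg2, which encodes PD-L2, the other ligand of PD-1. Pdcd1lg2 was 1.22-fold lower in Th17 than in Th22, 1.83-fold lower in Th22 than in Th0 and 2.24-fold lower in Th17 than in Th0. On the sides of Pdpn and Procr no neighbour passed 2-fold, and Prdm2 and Lrrc38 beside Pdpn differed by at most 1.20-fold. Edem2 beside Procr was 1.52-fold higher in Th17 than in Th22 and 1.87-fold higher than in Th0, the direction of Procr. Mmp24 on its other side was equal on all arrays. Cd4, next to Lag3, was 1.47-fold lower in Th17 than in Th22, and Ptms on its other side was equal on all arrays. Zbtb20 beside Tigit went the other way from Tigit, being 1.31-fold higher in Th17 than in Th22 and 1.88-fold higher than in Th0, and Drd3 on its other side was equal on all arrays. Atg3 beside Btla was 1.24-fold lower in Th17 than in Th22, Plgrkt beside Cd274 1.54-fold lower, and Ttf2 beside Cd101 was nearly equal in both.

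A list of further coinhibitory receptors and related inhibitory genes was mostly within 2-fold. Of 16 measured, 2 were higher in Th17 than in Th22, the collagen receptor gene Lair1 (3.45-fold) and Cd72 (2.53-fold), and 2 were lower, neither of them a coinhibitory receptor: the ligand gene Cd200 and the IL-10 receptor chain gene Il10ra (7.08-fold), with a median of 0 and 5 members equal on all 3 arrays. Ctla4, which encodes a competitor of CD28, differed by 1.11-fold. In Th22 against Th0 only Cd96, which encodes another receptor of CD155, passed 2-fold, being 2.36-fold lower. After quantile normalization Cd72 was 1.85-fold higher in Th17 than in Th22.

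Among costimulatory receptors and ligands 14 were measured, of which 7 passed 2-fold on the low side in Th17 against Th22, 0 on the high side, and the remaining 7 stayed between. Their median was -1.01 log2, beside 0 for all genes. The 7 lower genes were Cd226, the activating partner of TIGIT (3.70-fold), the CD40 ligand gene Cd40lg (3.29-fold), the 4-1BB gene Tnfrsf9 (3.07-fold), Slamf1 (2.77-fold), Slamf6 (2.30-fold), the GITR gene Tnfrsf18 (2.11-fold) and Icos (2.11-fold). Only 3 of these stayed past 2-fold after quantile normalization, and 5 after scaling on pan T cell genes. That scaling shifted this comparison by 0.10 log2, less than the size of the pan T cell genes' own median difference of -0.28. In Th17 against Th0, 4 of 14 were lower, with Cd226 at 5.02-fold, and 1 after quantile normalization. None of the 14 passed 2-fold in Th22 against Th0. Tigit and Cd226, which compete for a shared ligand, were thus both lower in Th17.

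Genes for ligands of the 10 proteins and for those of CD28 and CTLA-4 were listed together, and 22 of 24 were measured. In Th17 against Th22, Cd86 was 4.51-fold higher, while Cd80, whose product binds CD28, CTLA-4 and PD-L1, was 4.51-fold lower and the galectin-3 gene Lgals3 2.30-fold lower. The median was -0.04 log2. The HVEM gene Tnfrsf14, which serves BTLA and CD160, differed by 1.04-fold, the CD155 gene Pvr by 1.34-fold and the galectin-9 gene Lgals9 by 1.12-fold. The genes of CLEC-2 (Clec1b) and protein C (Proc) were equal on all 3 arrays. In Th17 against Th0, Cd80 was 7.29-fold lower, Pdcd1lg2 was lower as given above and Cd86 was 5.80-fold higher. None passed 2-fold in Th22 against Th0.

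Signalling genes of these receptors, such as those of the phosphatases that bind their tails, were within 2-fold in Th17 against Th22 for all 24 measured, although 2 passed upward after quantile normalization. In Th17 against Th0 only F2rl2, a thrombin receptor family gene, passed, at 3.43-fold lower. F2r, which encodes the receptor PAR1 that protein C acts on together with PROCR, lay 1.97-fold below Th0 in Th22 and 1.16-fold below Th0 in Th17, so that Th22 was its low array, and it did not follow the pattern of Procr.

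Transcription factors tied to these genes differed both ways. Of 23 measured, 3 were higher in Th17 than in Th22, namely Maf (11.4-fold), the aryl hydrocarbon receptor gene Ahr (3.61-fold) and Ikzf3 (3.59-fold). Tbx21, which encodes T-bet, was 6.30-fold lower and Id3 3.35-fold lower, and the median was 0.01 log2. Prdm1 was 1.56-fold lower in Th17 than in Th22 and 2.18-fold lower than in Th0, so Maf and Prdm1 lay on opposite sides. Nr4a2 and Nr4a3, which encode nuclear receptors induced by antigen receptor signals, were 2.23-fold and 2.59-fold lower in Th17 than in Th0, the former 1.83-fold after quantile normalization. In Th22 against Th0 only Tbx21 passed, at 2.27-fold lower.

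In the IL-27 and IL-10 program, 5 of 12 measured genes were higher in Th17 than in Th22 and 2 lower, with a median of 0.04 log2. Over all genes 1.1% were higher and 1.5% lower. The higher ones were the ectoenzyme gene Nt5e (24.3-fold), Il10 (21.1-fold), Entpd1 (3.76-fold), Il6st (3.62-fold) and Adgrg1 (2.06-fold, or 1.61-fold after quantile normalization). The lower ones were Il10ra and Gzma (4.85-fold). Il10 and Nt5e thus stood with Pdpn, Procr and Cd101 on the high side of Th17, and Il10ra and Gzma with Btla, Tigit and Cd274 on the low side. In Th22 against Th0 only Il21 passed, 4.46-fold higher. In Th17 against Th0, 6 of the 12 were higher, Il21 joining the 5 above. On the low side were 3, with Ebi3 (2.41-fold) besides Il10ra and Gzma.

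**Figure D4:**
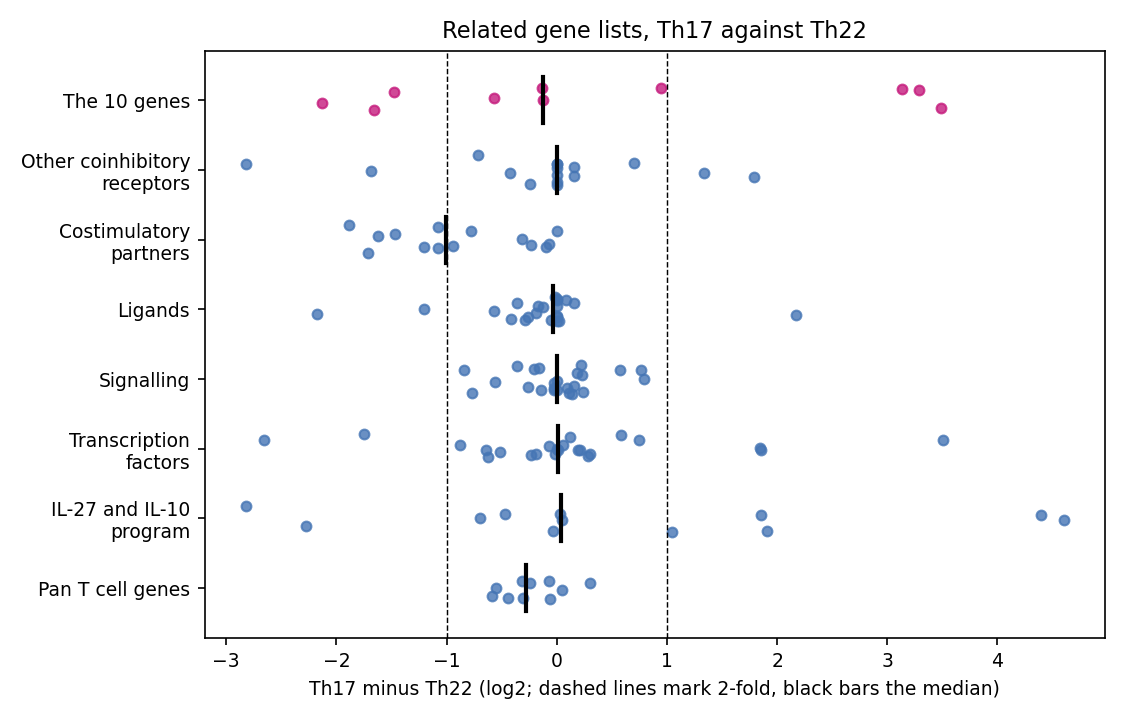
Difference Th17 minus Th22 on the log2 scale for the 10 genes and for 7 related gene lists (1 point per gene, scattered vertically for visibility; black bars are medians; dashed lines mark 2-fold). The 10 genes fall on both sides, the costimulatory genes have a median of -1.01 and the signalling and pan T cell genes stay inside the dashed lines.

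Markers of other cells that can carry these proteins were read beside the members. The 12 markers of myeloid and dendritic cells and the 13 of endothelial and stromal cells stayed within 2-fold in every comparison, and 6 of each were equal on all 3 arrays. In Th17 against Th22 the myeloid and dendritic markers ranged from -0.23 to 0.04 log2 and the endothelial and stromal ones from -0.72 to 0.08. Of 7 B cell markers, 4 were equal on all arrays and 1, Ebf1, was 6.36-fold lower in Th17 than in Th22 and 3.07-fold higher in Th22 than in Th0. Of 8 CD8 and NK cell markers 1, Cd8b1, was 2.20-fold lower in Th17 than in Th22 and 2.61-fold lower than in Th0, while Cd8a differed by 1.11-fold and 1.04-fold. The list's median was 0 against Th22 and -0.03 log2 against Th0. The part of these cells in the lower Btla, Tigit and Cd274 was not tested. The 10 pan T cell genes had a median of -0.28 log2 in Th17 against Th22, with all of them within 2-fold.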

How the data were processed

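Per the labels, total RNA of Th0, Th22 and Th17 cells was biotin-labelled by Affymetrix methods and measured on 1 array each. The deposited values were taken as log2, each probe being relative to its own median over the 3 arrays; this centring was found from the values and holds for all 28853 probes. Of these, 11627 (40.3%) were exactly equal on all arrays. Where 2 arrays were equal and the other was not, it was higher for 3390 probes and lower for 3617. How background was corrected, how arrays were normalized, and with which software and log base, is not given in the sources used here.

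Of the probes, 21789 had 1 symbol, 1621 had several and 5443 were not listed. Symbols were updated by Entrez identifier for 21698 with a gene table of GRCm38.p6. Probes of a gene were averaged. The code that counts genes at 2-fold was checked on simulated arrays with planted differences, which is no test of the conditions. The 10 genes and the gene lists were chosen with earlier results of these data known. Named are the 10 genes, list members past 2-fold, and the 3 genes nearest in pattern to each of the 10 past 2-fold; the genes next to them on the chromosome, and a few listed partners within 2-fold, were chosen after their values were seen. Protein sequences were not used here. Alternatives were quantile normalization, other thresholds, natural logs, scaling on pan T cell genes and the most variable probe of a gene. Python 3.11.15, pandas 2.3.3, numpy 2.4.6 and matplotlib 3.10.9 were used.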

Additional observations from a re-analysis of the deposited data

How the results depend on the processing

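No paired analysis was possible because each group has 1 array. The count of the 10 genes lower in Th17 than in Th0 was 5 at a 1.5-fold threshold and 5 with natural logs, against 3, and at 1.5-fold 1 gene, Cd160, was lower in Th22 than in Th0. On the high side, Pdcd1 passed in both Th17 comparisons at 1.5-fold and with natural logs. With natural logs the folds would be larger, Pdcd1 at 2.57 for Th17 against Th22 and 2.14 for Th17 against Th0. At a 3-fold threshold Cd274, at 2.78-fold, no longer passed in Th17 against Th22. For scaling on pan T cell genes, the median of their centred values was subtracted from each array. The median of all genes moved to 0.10 log2 for Th17 against Th22 and -0.10 for Th22 against Th0. Pdcd1 came to 2.06-fold in Th17 against Th22, past the threshold. That shift was smaller in size than these genes' own median difference in Th17 against Th22 (-0.28 log2), so it did not make them equal. Of the 30 differences of the 10 genes, quantile normalization moved 17 by more than the SD between probes, with 0 turned among those past 2-fold, and took Cd274 in Th17 against Th22 under 2-fold. The cause was not tested. Over all genes, 161 passed in Th22 against Th0, 67.7% of them higher, against 308 and 48.7% after quantile normalization and 157 and 54.8% on pan T cell genes. Quantile normalization of the centred values widens those of Th22 by construction, so more genes pass in that comparison. After it, 1.54% of all genes passed 2-fold in Th22 against Th0. Of the lists, 4 of 23 transcription factor genes, 3 of 24 signalling genes and 2 of 16 further coinhibitory receptor genes passed on the low side. So did 1 of 22 ligand genes and 1 of 12 genes of the IL-27 and IL-10 program. On the high side were 1 ligand gene and 1 transcription factor gene, besides Il21. Using the most variable probe changed none of the 30, because each of the 10 genes has 1 probe. With centred values, signal over background is unknown, so an equal value may mean no change or no detection.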
